A study of Homo sapiens with 9 samples.

Results

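Carminic acid, the red glucosylated anthraquinone of cochineal insects, was given at 20 µM for 24 h to differentiated Caco-2 cells, and the 3 treated libraries were compared with the 3 libraries of cells kept in culture medium without dye (control). These 6 libraries, chosen by their labelled treatment, are part of a series of 9. The other 3 came from cells given 10 µM carmine, the aluminium complex of carminic acid, for 24 h. Caco-2 is a human colon carcinoma line, labelled wild type here, that forms an absorptive, enterocyte-like layer when differentiated. All groups were grown alike in 6-well plates, and the controls received regular medium. Whether the samples of a group were grown as independent cultures is not in the labels. The p-values therefore describe the spread among these 3 samples, and that spread may be technical.

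Enterocytes absorb nutrients through a brush border of microvilli that carries digestive enzymes and transporters. Polyphenolic and anthraquinone compounds of food meet these cells first, and planar aromatic compounds can bind the aryl hydrocarbon receptor, a transcription factor that induces the cytochrome P450 gene CYP1A1. Splicing factors rich in arginine and serine (SR-rich factors), whose genes are also described below, bind pre-mRNA in the nucleus and help choose exons. The CLK kinases phosphorylate them, and several of their genes adjust their own splicing.

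The 6 libraries held 54871018 to 56511439 counts each. Correlations of log2 CPM (counts scaled to library size) ran from 0.9924 to 0.9936 within a group and from 0.9912 to 0.9930 between the groups. The first principal component of these libraries, with 25.7% of the variance, placed the controls at -13.4, -14.1 and -17.1 and the carminic acid libraries at 6.60, 19.8 and 18.3. Of 12 enterocyte markers 11 were present and KRT20 was at 0, with summed levels of 5960 to 6410 CPM in control and 6040 to 6380 with carminic acid. Summed levels overlapped between the groups for the goblet, enteroendocrine, Paneth, tuft, stem, stromal, endothelial, immune and erythroid markers too. Among these markers PTPRC, TYROBP, KDR, HBB, DEFA5 and NEUROD1 were at 0. Others were present, with CD68 (immune) at 303 to 383 CPM and COL1A1 (stromal) at 99.8 to 148 CPM. PECAM1 (endothelial) stood at 10.1 to 12.2 CPM, LYZ (Paneth) at 8.82 to 13.9 CPM and CHGB (enteroendocrine) at 2.21 to 3.22 CPM. In bulk samples such as these, fewer cells of a type and less RNA per cell cannot be told apart.

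The edgeR fit of all 9 libraries called 0% of 16017 genes at an adjusted p under 0.05, while 1030 had an unadjusted p under 0.05 (403 higher and 627 lower). The smallest adjusted p was 0.129. In that fit the carmine libraries add to the estimate of spread: the biological coefficient of variation was 10.9% with them and 8.12% without them. With only the 6 libraries in the fit, 49 genes were called, 13 higher (0.0824% of 15782 tested) and 36 lower (0.228%). This number depended on single libraries. It was 11 without control B, 20 without carminic acid C, 32 without carminic acid B, 102 without control C, 342 without carminic acid A and 362 without control A. All 49 genes kept their direction in each of these 6 fits, which is no independent support, since they were picked from these same libraries. Of the 49, 7 were called in every fit: CYP1A1 and DHRSX among the higher, and PNISR, TIA1, CCDC14, GSDMD and TBC1D3D among the lower. The calls of all other genes of the 49 ended without at least 1 library.

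Base composition moved with the comparison. Log2 fold changes (carminic acid over control) followed the GC content of the transcripts across 15453 genes (Spearman 0.48), from a median of -0.11 in the GC-poorest of 5 equal groups of genes, 12% of them positive, to 0.11 in the richest group, with 75.7% positive. The genes called higher in the 6 libraries had a median GC content of 59.8% and those called lower 40.4%, against 49.9% for all tested genes. The trend sat mostly in 3 libraries, since deviations from the mean of the 6 libraries had coefficients of -0.56 in control C, -0.28 in control B and 0.55 in carminic acid B. Control A (0.05), carminic acid A (0.08) and carminic acid C (0.16) had nearly none. The first principal component put the 6 libraries in the same order as these coefficients, from control C to carminic acid B. What that component reflects was not tested. The plot of fold change against GC content shows the gradient. Results are therefore also given from 2 further calculations. In the first, trends with GC content and transcript length were removed from each library, and 56 genes were then called in the fit of the 6 libraries, 22 higher (0.144% of 15249) and 34 lower (0.223%), of which 22 were among the 49 above. Without 1 library the 56 became 24 (control B), 29 (carminic acid C), 98 (control C) or 254 (carminic acid A). All 56 kept their direction, again in the libraries that picked them, and 15 kept their call in every such fit. The calls of the others ended without at least 1 library. In the 9-library fit with the trends removed, 9017 of 15453 genes were positive, with a median log2 fold change of 0.02. That fit called 4 genes, CYP1A1 and FGA higher and PPFIA4 and TBC1D3D lower. The second is the difference of carminic acid A and C from control A alone, which followed GC content with a coefficient of 0.06 and has no test.

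**Figure D1:**
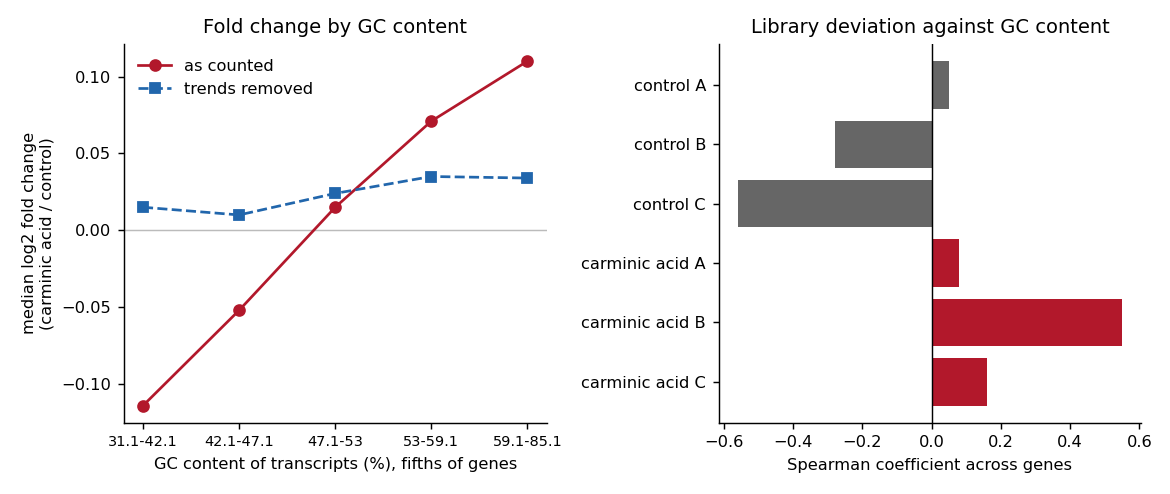
Left, median log2 fold change of carminic acid over control in 5 equal groups of genes ordered by the GC content of their transcripts (x axis, percent), as counted (circles) and with the GC and length trends of each library removed (squares). Right, Spearman coefficient across genes between GC content and each library's deviation from the mean of the 6 libraries. The medians climb from -0.11 to 0.11 as counted, and control C and carminic acid B have the steepest coefficients, in opposite directions.

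CYP1A1, the monooxygenase gene that classically reports activity of the aryl hydrocarbon receptor, had the smallest unadjusted p of the 9-library edgeR fit (1.25e-05). It stood at 5.29, 5.74 and 5.40 CPM in control A, B and C and at 9.34, 9.14 and 8.91 CPM with carminic acid. The carminic acid libraries had an SD of 0.216 CPM and all lay above the controls. The difference was 0.74 on the log2 scale in the 9-library edgeR fit, with an adjusted p of 0.129, and 0.00695 with the trends removed. In the 6-library fit the edgeR adjusted p was 9.34e-04, and with the trends removed the log2 fold change was 0.72 and the adjusted p 3.74e-04. It was called with each library left out in turn, in both 6-library fits, with adjusted p-values of at most 0.0093 and 0.00314, and the library trio without a GC trend gave 0.78. The carmine libraries at 10 µM, which share these controls, stood at 7.13, 8.44 and 9.04 CPM.

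The CYP1A1 gene lies on the reverse strand of chromosome 15 (RefSeq, GRCh38.p14). The receptor's known core motif is GCGTG, and the stretch from 250 bases before to 50 bases after the annotated start (chr15:74725479-74725778) is shown because this gene led the comparison. It holds that motif once, in capitals, from position -57 relative to the start:
CYP1A1: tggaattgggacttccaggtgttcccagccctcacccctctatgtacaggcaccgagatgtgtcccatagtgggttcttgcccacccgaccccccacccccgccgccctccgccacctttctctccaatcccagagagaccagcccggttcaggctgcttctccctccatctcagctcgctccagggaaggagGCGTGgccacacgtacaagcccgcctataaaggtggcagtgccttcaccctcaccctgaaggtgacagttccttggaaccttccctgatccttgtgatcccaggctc
The motif GCGTG, or CACGC on the other strand, is common. It occurs in 36.5% of the 35116 promoter stretches of this length, so the match is a description of the sequence only.

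The other genes of the receptor's pathway were not called. Of the 10 tested members of the list 4 were positive and CYP1A1 alone was called in the 6-library fit. The list's median was -0.02, against -0.01 for all tested genes. Repressor and feedback genes overlapped between the groups. AHRR, which encodes the receptor's repressor, stood at 0.717, 1.02 and 0.736 CPM in control and at 0.876, 0.339 and 0.652 with carminic acid. TIPARP, which encodes a poly-ADP-ribose polymerase that limits the receptor, had overlapping groups and a log2 fold change of -0.11 (95% interval -0.35 to 0.12). UGT1A6, a conjugating enzyme gene of the pathway, had -0.27 (95% interval -0.57 to 0.04). CYP1B1 had 18 counts in all 9 libraries together, too few for a test.

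**Figure D2:**
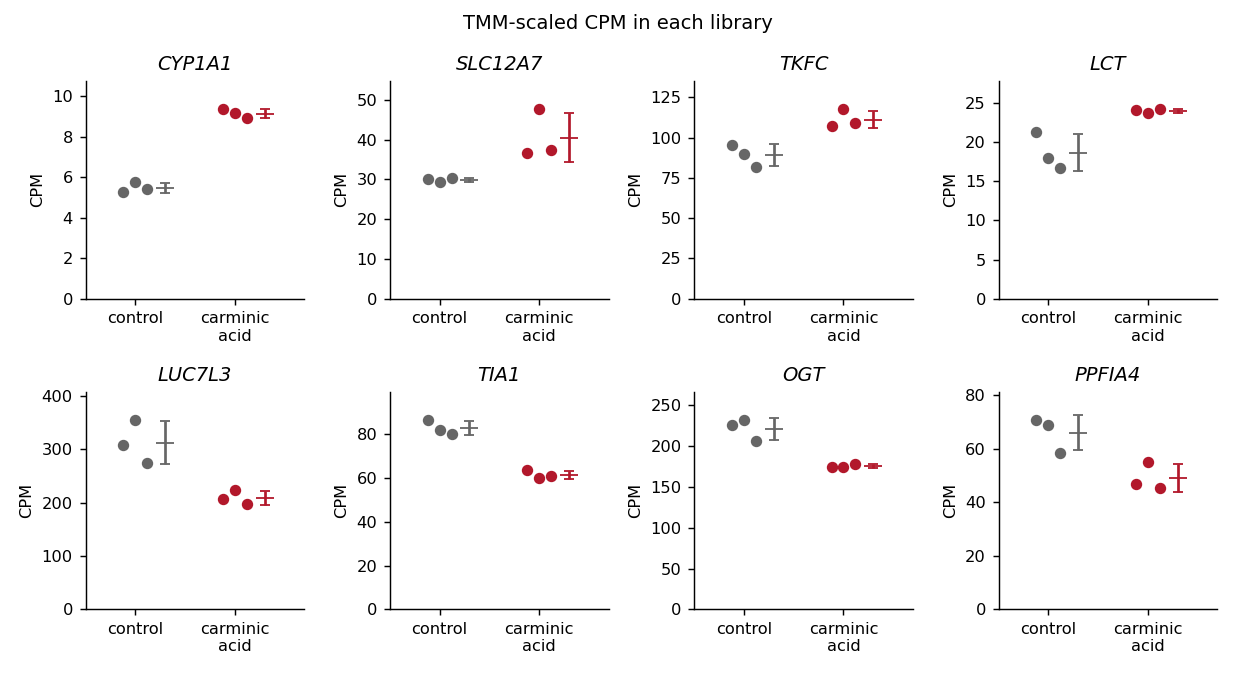
TMM-scaled CPM of 8 genes in each of the 6 libraries (y axis from 0, CPM), with control in grey and carminic acid in red. Points are libraries A, B and C from left to right, and the bar beside them is the mean ± SD (n = 3). The groups do not overlap in any of these genes, which were picked by rules that require or favour this. Of all tested genes, 12% lay above and 8.82% below every control. CYP1A1 goes from 5.29 to 5.74 CPM in control to 8.91 to 9.34 CPM with carminic acid.

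Genes of SR-rich splicing factors were lower with carminic acid. Of 52 tested members 46 were negative, with a median log2 fold change of -0.15 against -0.01 over all tested genes, and in 29 of them every carminic acid library lay below every control, where 8.82% of all tested genes did so. The reverse pattern, which 12% of all tested genes had, was seen in 0. Of the 52, 8 were called lower in the 6-library fit (LUC7L3, PNISR, ARGLU1, RBM39, SRSF11, CCNL1, CCNL2 and U2SURP), where the share of all genes was 0.228%. The number was between 1 (without carminic acid C) and 13 (without carminic acid A) when 1 library was left out. The summed level of the list was 6277, 6166 and 5924 CPM in control and 5586, 5437 and 5394 CPM with carminic acid, so the groups did not overlap. Members were poor in GC, with a median of 44.7%, and with the trends removed the median was -0.10, 40 of 52 were negative, 12 lay below every control (4.94% of all genes), 7 lay above every control (16.8% of all genes) and 2 were called lower.

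LUC7L3, which encodes a factor associated with the U1 particle that recognises the 5′ splice site, stood at 308.7, 354.5 and 274.3 CPM in control and at 206.0, 223.3 and 197.3 CPM with carminic acid. The highest treated library lay well under the lowest control. A log2 fold change of -0.58 resulted (95% interval -0.80 to -0.37, adjusted p = 0.229), with an adjusted p of 0.0124 in the 6-library fit. It was -0.46 with the trends removed (6-library adjusted p = 0.309) and -0.61 in the trio without a GC trend, so removal of the trends ended the call while the trio gave a value as large. PNISR, the gene of another splicing-associated protein, stood at 84.9, 91.8 and 76.4 CPM against 59.6, 62.0 and 56.8 CPM with carminic acid. On the log2 scale PNISR differed by -0.50 (6-library adjusted p = 9.09e-04), -0.35 with the trends removed (6-library adjusted p = 0.283) and -0.54 in the trio. ARGLU1, a splicing cofactor gene with a log2 fold change of -0.38, stood at 64.6, 62.3 and 56.1 CPM against 44.7, 50.01 and 45.8 CPM. RBM39, which encodes a splicing factor related to U2AF, stood at 398, 420 and 356 CPM against 300.3, 310 and 306 CPM (a log2 fold change of -0.36, 6-library adjusted p = 0.00985, and 0.0506 with the trends removed).

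The cyclin L genes were called in both 6-library fits. CCNL1 and CCNL2 encode cyclins with arginine- and serine-rich tails that partner with transcription and splicing kinases. CCNL1 stood at 74.6, 70.0 and 67.0 CPM in control and at 56.1, 57.2 and 55.9 CPM with carminic acid. CCNL2 stood at 114, 123 and 103 CPM against 86.6, 96.2 and 86.7 CPM. Their 6-library log2 fold changes with the trends removed were -0.29 for CCNL1 (edgeR adjusted p = 0.00503) and -0.34 for CCNL2 (0.00293). With the trends removed both were called with each library left out in turn, at adjusted p-values of at most 0.0302 and 0.0284. As counted, each kept its call in 4 of those 6 fits, with edgeR adjusted p-values of up to 0.117 and 0.199. Neither gene passed in the 9-library fit (adjusted p = 0.717 for both).

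Within the SR family proper the differences were smaller. SRSF11 stood at 152, 139 and 141 CPM in control and at 121, 121 and 118 CPM with carminic acid (a log2 fold change of -0.26, 6-library adjusted p = 0.0425, and 0.185 with the trends removed). SRSF5 had a log2 fold change of -0.11 and SRSF6 one of -0.28, neither of them called. The largest positive value of the list, 1.73 for U2AF1, came from 1 library: it stood at 10.04 CPM in carminic acid A and at 1.06 to 1.66 CPM in the other 5. U2AF1 has a near-identical copy in the build, so its reads may be divided between 2 entries. CLK1, the kinase gene best known for phosphorylating SR proteins, stood at 87.9, 92.5 and 84.5 CPM against 71.3, 71.3 and 68.6 CPM with carminic acid (a log2 fold change of -0.33, 6-library adjusted p = 0.0154, and 0.0823 with the trends removed). CLK4 also lay below every control, and of the 10 tested kinases of the CLK, DYRK and SRPK families 7 were negative with a median of -0.03.

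**Figure D3:**
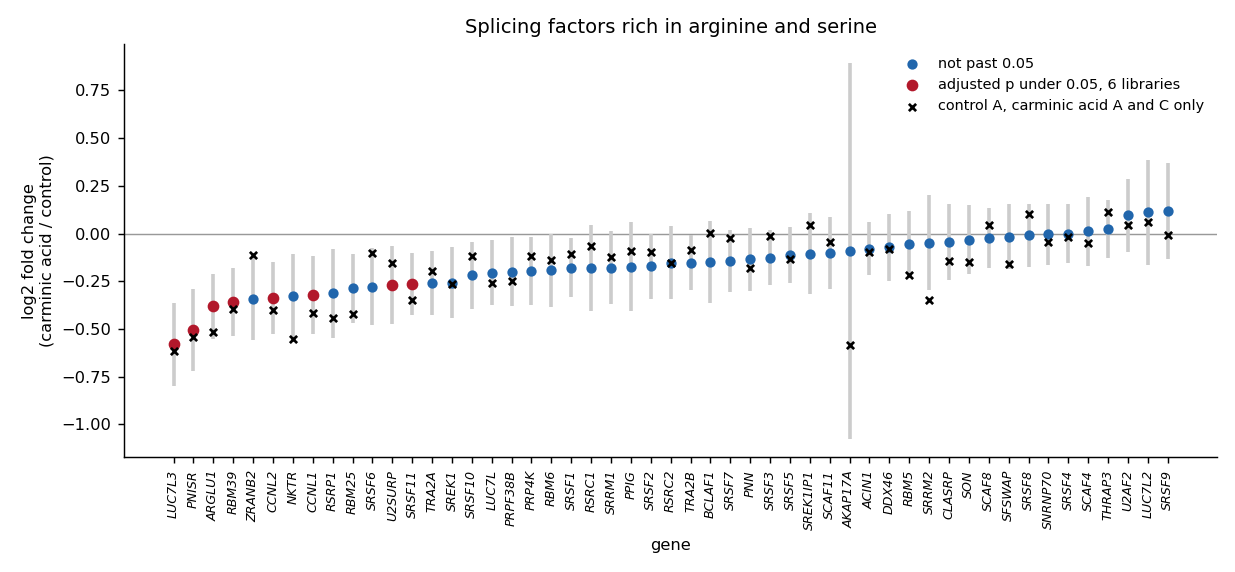
Log2 fold change of carminic acid over control (y axis) for 51 of the 52 tested genes of SR-rich splicing factors (x axis), ordered by value. U2AF1 is left out because of its wide interval. Circles are values of the 9-library fit with 95% intervals as grey bars, red where the 6-library fit had an adjusted p under 0.05, and crosses are the untested difference of carminic acid A and C from control A. Of all 52 genes 46 lie below 0, and LUC7L3, PNISR and ARGLU1 lie lowest.

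Related nuclear RNAs gave the same sign with less certainty. Of 26 tested nuclear-retained long noncoding RNAs 21 were negative (median -0.15, and -0.05 with the trends removed), and none was called in the 6-library fits. MALAT1, a long RNA of nuclear speckles, where splicing factors are stored, stood at 253, 214 and 164 CPM in control and at 130, 146 and 110 CPM with carminic acid. NEAT1, the scaffold RNA of paraspeckles, stood at 461, 402 and 307 CPM against 252, 299 and 216 CPM. The groups did not overlap for either RNA, but control C lay nearer to the treated libraries than to control A, and the adjusted p was 0.717 for both. The RNA-binding proteins of the hnRNP and DEAD-box families differed less: 26 of 38 were negative as counted (median -0.04). With the trends removed 26 of 38 were positive, but their median of 0.01 lay below the 0.02 of all tested genes.

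Single genes of RNA-binding and nuclear proteins were also called lower. TIA1, the 1 called member of the hnRNP and DEAD-box list, which encodes a regulator of splicing and translation found in stress granules, stood at 86.3, 81.7 and 80.1 CPM in control and at 63.4, 60.0 and 60.7 CPM with carminic acid. Its log2 fold change was -0.43 (6-library adjusted p = 9.34e-04, and 0.0429 with the trends removed). OGT, the enzyme gene that attaches N-acetylglucosamine to nuclear and cytoplasmic proteins, stood at 226, 232 and 206 CPM against 175, 174 and 179 CPM. The treated libraries of OGT were nearly equal, and its log2 fold change was -0.33 (6-library adjusted p = 0.0102, and 0.0138 with the trends removed). WSB1, a substrate receptor of a ubiquitin ligase, stood at 240, 233 and 202 CPM against 176, 179 and 162 CPM (a log2 fold change of -0.39, 6-library adjusted p = 0.00985), and lost its call with the trends removed (0.302). CCDC14, which encodes a protein of centriolar satellites, had -0.49 (6-library adjusted p = 9.34e-04, and 0.0312 with the trends removed). TTC14 had -0.44 (0.00742, and 0.0537 with the trends removed).

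PPFIA4 and NNAT did not follow base composition. PPFIA4, the gene of a liprin scaffold protein, has 58.8% GC and stood at 70.6, 68.7 and 58.5 CPM in control and at 46.8, 54.9 and 45.3 CPM with carminic acid. On the log2 scale it differed by -0.43, and by -0.50 with the trends removed, where the 6-library adjusted p was 2.85e-04. NNAT, an imprinted gene for a small membrane proteolipid, stood at 4.50, 3.90 and 3.40 CPM against 2.23, 2.43 and 2.06 CPM (-0.81, and 0.00503 with the trends removed). RAD52, a recombination gene, SEC31B, a gene of the vesicle coat that leaves the endoplasmic reticulum, and CREBZF, a transcriptional cofactor gene, were called lower in both 6-library fits. Carmine, beside the same controls, gave log2 fold changes of -0.60 for PPFIA4 and -1.16 for NNAT.

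Several calls concern genes whose reads may be shared with close copies. TBC1D3D, of a family of near-identical gene copies on chromosome 17, stood at 2.60, 1.40 and 2.14 CPM in control and at 0.315, 0.303 and 0.0724 CPM with carminic acid. Its log2 fold change was -3.13 (edgeR adjusted p = 0.129, 0.0329 with the trends removed, and 0.00234 in the 6-library fit), and reads may be divided among the copies. The pseudogenes GSTA7P (-1.63) and DDX12P were called lower in the 6-library fit with the same reservation. LOC646471, a gene without a GC value here, had -0.87 (6-library adjusted p = 0.0425).

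GSDMD and DHRSX had the largest differences among the called genes, 1 in each direction, and the carmine libraries of both were far apart. GSDMD, the gene of gasdermin D, the pore-forming protein of pyroptosis, had 671, 460 and 444 counts in control A, B and C and 49, 31 and 39 counts with carminic acid. The carmine libraries had 37, 468 and 68 counts, so 2 of them lay at or near the lower level and 1 at the level of the controls. DHRSX, a dehydrogenase gene in the pseudoautosomal region that X and Y chromosomes share, had 72, 53 and 86 counts in control and 386, 328 and 460 with carminic acid. The carmine libraries had 256, 49 and 54 counts there. The log2 fold changes were -3.72 for GSDMD and 2.49 for DHRSX, each with an adjusted p of 2.89e-08 in the 6-library fit and 0.717 in the fit that includes carmine. For GSDMD, carmine C lay just above the carminic acid libraries, and no library lay between 68 and 444 counts. For DHRSX, carmine A lay between control and carminic acid. What sets these levels was not tested. SLC25A6, another gene of the shared region that encodes an ADP/ATP carrier, stood at 23.3, 20.4 and 18.4 CPM against 34.6, 24.2 and 28.5 CPM with carminic acid and was not called.

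**Figure D4:**
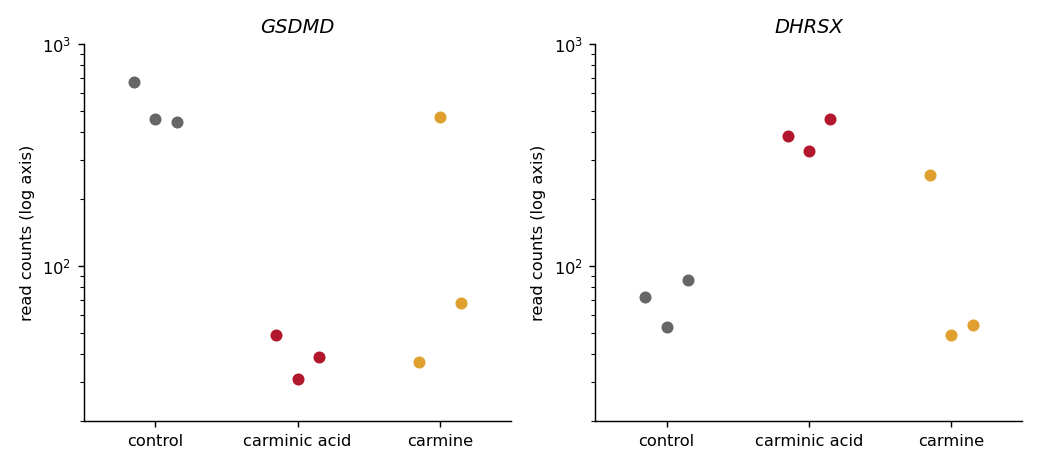
Read counts of GSDMD and DHRSX in all 9 libraries (y axis, log scale), with 1 point per library and groups along the x axis. Control and carminic acid libraries lie at opposite levels, at 444 to 671 and 31 to 49 counts for GSDMD, and the 3 carmine libraries are spread, at 37, 68 and 468 counts for GSDMD and 49, 54 and 256 for DHRSX.

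Genes called higher in the 6 libraries had small differences, with a median log2 fold change of 0.33. TKFC, a kinase gene of fructose metabolism, stood at 95.3, 89.99 and 81.9 CPM in control and at 107, 118 and 109 CPM with carminic acid. Its log2 fold change was 0.32 (6-library adjusted p = 0.03), and with the trends removed 0.27 (0.00503), a call kept with each library left out. SLC12A7, which encodes a potassium-chloride cotransporter, stood at 29.97, 29.4 and 30.4 CPM against 36.6, 47.6 and 37.3 CPM. Carminic acid B lay above the other treated libraries of SLC12A7. Its 6-library adjusted p was 0.0425, and 0.0456 with the trends removed. CX3CL1, a membrane-bound chemokine gene, CENPB, a centromere protein gene, WTIP, the gene of a cell-junction adaptor, and TYRO3, a receptor kinase gene, had log2 fold changes of 0.29, 0.33, 0.35 and 0.27 and were called in both 6-library fits.

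Of the 13 genes called higher as counted, 8 were called with the trends removed, and CDH4, CEBPA, MISP, TPGS1 and the nuclear receptor gene NR2F6 were not. CDH4, a classical cadherin gene, stood at 21.1, 23.2 and 17.0 CPM in control and at 28.03, 27.7 and 30.8 CPM with carminic acid (6-library adjusted p = 0.0393, and 0.0954 with the trends removed). CEBPA, a transcription factor gene of differentiated epithelia and hepatocytes, stood at 288, 250.1 and 256 CPM against 314, 328 and 323 CPM (0.0425, and 0.0682). MISP, which encodes an actin-bundling protein of spindle and microvilli, had a log2 fold change of 0.26 (0.0425, and 0.078). TPGS1, a tubulin polyglutamylase subunit gene, had a log2 fold change of 0.52 (0.0425, and 0.0839). Other genes that the naming rule picked among the higher, and that were not called in the 6 libraries as counted, were JPH3, KLHDC7A, KCNJ12, BTBD7 and RGPD5, with log2 fold changes of 0.33, 0.30, 0.49, 1.07 and 1.46, and RGPD5 belongs to a family of close copies.

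Digestive enzymes of the brush border were mostly higher with carminic acid. Of 22 tested hydrolases and peptidases 20 were positive, with a median log2 fold change of 0.12 against -0.01 over all tested genes, and 7 lay above every control (12% of all genes). With the trends removed the median was 0.13 (0.02 over all tested genes), and in the trio without a GC trend 0.08 (17 of 22 positive). No member was called in the 6 libraries as counted, and 3 were called higher with the trends removed, LCT, MEP1A and ENPP7, where the share of all genes was 0.144%. That number ran from 0 (without control B, control C or carminic acid C) to 5 (without carminic acid A).

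LCT, the lactase gene, stood at 21.3, 17.97 and 16.7 CPM in control and at 24.2, 23.7 and 24.2 CPM with carminic acid. The treated libraries were nearly equal, and control A lay closest to them. Its log2 fold change was 0.36 (95% interval 0.16 to 0.57), with an adjusted p of 0.717 in the 9-library fit, 0.056 in the 6-library fit and 0.0267 with the trends removed. MEP1A, the gene of the metalloprotease meprin A, stood at 247, 259 and 257 CPM against 268, 297 and 297 CPM (0.18, and 0.0456 with the trends removed). ENPP7, which encodes alkaline sphingomyelinase, stood at 66.0, 65.5 and 58.6 CPM against 69.8, 87.6 and 81.7 CPM (0.33, and 0.0458 with the trends removed). Other main enzymes of this membrane were close to control. SI, the sucrase-isomaltase gene, stood at 285, 296 and 297 CPM against 297, 268 and 319 CPM (a log2 fold change of 0.01, 95% interval -0.20 to 0.22). DPP4, a dipeptidyl peptidase gene, had 0.02, ANPEP, the aminopeptidase N gene, 0.12, and ALPI, the intestinal alkaline phosphatase gene, 0.16, all with overlapping groups.

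The actin core of the microvilli and the transporters of the membrane had smaller positive values. VIL1, the gene of the actin bundler villin, stood at 1207, 1223 and 1170 CPM in control and at 1267, 1327 and 1315 CPM with carminic acid, and MYO1A, a brush border myosin gene, had a log2 fold change of 0.14. Neither was called. Of 31 nutrient transporters 23 were positive (median 0.09), and 11 lay above every control (12% of all genes). SLC3A1, which encodes a subunit of the carrier for cystine and dibasic amino acids, stood at 62.2, 69.0 and 67.4 CPM against 74.4, 74.8 and 74.4 CPM. With the trends removed its log2 fold change was 0.27 (6-library adjusted p = 0.007), called with each library left out. SCARB1, a lipoprotein receptor gene, had a log2 fold change of 0.20 and was not called. SLC26A3, the chloride-bicarbonate exchanger gene of the colonic surface, stood at 163, 163 and 173 CPM against 182, 176 and 196 CPM, and passed with the trends removed (0.26, adjusted p = 0.00528) but not as counted (0.195).

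Lysosomal enzymes were mostly higher with carminic acid. Of 43 tested lysosomal hydrolases 33 were positive (median 0.09), 20 lay above every control (12% of all genes) and 1 below (8.82%). With the trends removed 34 were positive (median 0.11) and 17 lay above every control, where 16.8% of all genes did so. In the trio without a GC trend 36 of 43 were positive (median 0.08). CTSD, the cathepsin D gene, stood at 1222, 1158 and 1086 CPM in control and at 1245, 1487 and 1437 CPM with carminic acid, so that carminic acid A lay just above control A. CTSB, the cathepsin B gene, stood at 881, 881 and 835 CPM against 956, 1059 and 988 CPM. CTSH, the cathepsin H gene, stood at 149, 150.2 and 143 CPM against 161, 178 and 175 CPM and was the only hydrolase called, with the trends removed (log2 fold change 0.20, 6-library adjusted p = 0.0383). GUSB, the beta-glucuronidase gene, had 0.23 and an adjusted p of 0.0787 in the 6 libraries.

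Membrane proteins of the lysosome followed with smaller values. Of 35 members, proton pump subunits included, 25 were positive (median 0.07). LAMP1, an abundant membrane glycoprotein gene, stood at 465, 433 and 435 CPM in control and at 466, 526 and 511 CPM with carminic acid. TFEB, the transcription factor gene that drives lysosomal genes, stood at 19.2, 19.1 and 16.1 CPM against 22.6, 22.8 and 21.6 CPM (a log2 fold change of 0.30, 6-library adjusted p = 0.0917). SQSTM1, the gene of an autophagy receptor, had 0.13. None of these 3 genes was called in the 6 libraries, as counted or with the trends removed.

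**Figure D5:**
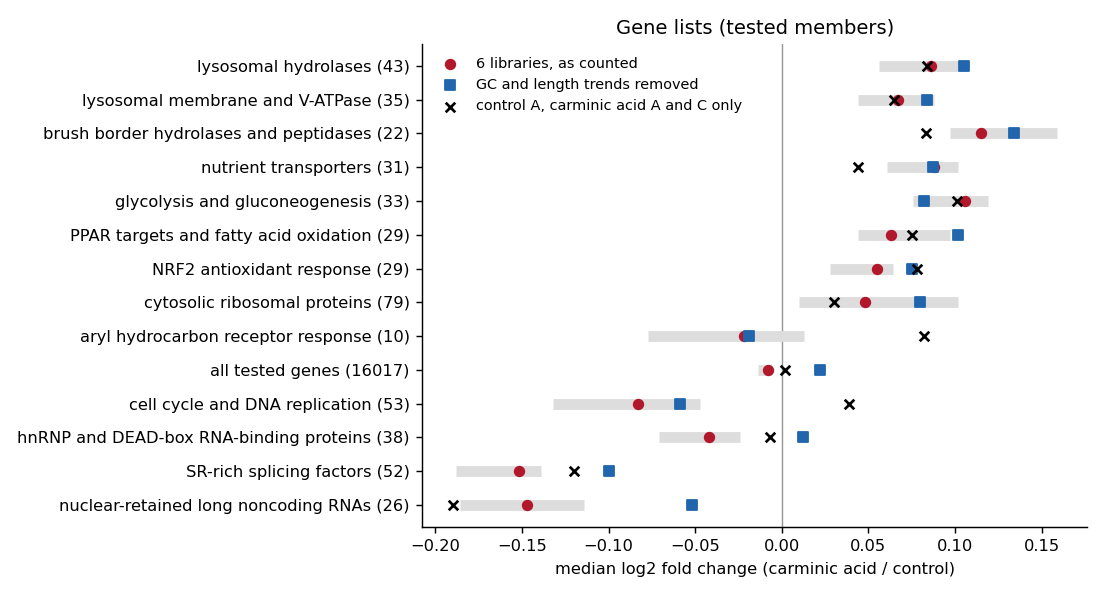
Median log2 fold change of carminic acid over control (x axis) for 13 gene lists and for all tested genes, with the number of tested members in parentheses. Circles are values as counted, squares have the GC and length trends removed, crosses are the untested difference of carminic acid A and C from control A, and grey bars span the medians with each of the 6 libraries left out. Lysosomal and brush border lists lie to the right of 0 and SR-rich splicing factors to the left under all 3 calculations, whereas the cell cycle list changes sign in the library trio.

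Metabolic genes were positive by similar amounts. Glycolysis and gluconeogenesis had 29 of 33 positive members (median 0.11, and 0.08 with the trends removed), and 14 lay above every control (12% of all genes). With the trends removed 6 did so, where 16.8% of all genes did. PPAR targets and fatty acid oxidation had 25 of 29 positive (0.06, and 0.10 with the trends removed). Neither list had a called member. Mitochondrial genome transcripts had negative values in all 15 tested genes (median -0.48, and -0.78 without carminic acid C). In the trio without a GC trend the median was -0.13, with 3 of 15 positive. For the whole chromosome, the share of counts overlapped between the groups (control 1.945, 2.515 and 2.433%, carminic acid 1.486, 1.241 and 2.082%). The exact two-sided permutation test gave p = 0.2, where 3 libraries against 3 cannot go below 0.1.

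Enzymes that conjugate or export foreign compounds showed little. Of 33 tested phase II genes 14 were positive as counted (median -0.02) and 22 with the trends removed (0.05, against 0.02 over all tested genes). UGT2B7, a glucuronosyltransferase gene, stood at 73.5, 75.5 and 75.4 CPM in control and at 76.8, 79.5 and 86.2 CPM with carminic acid, and was called with the trends removed (0.24, 6-library adjusted p = 0.0245). MAOB, the monoamine oxidase B gene, stood at 100.3, 98.4 and 93.7 CPM against 112, 110.2 and 124 CPM and was also called only then (0.27, adjusted p = 0.0103). The drug pump genes ABCB1, ABCC2 and ABCG2 and the carboxylesterase gene CES2 had log2 fold changes of -0.06, 0.02, -0.13 and 0.03, with overlapping groups.

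Most oxidant response genes were positive by small amounts, and the classical targets among them were divided. HMOX1, the heme oxygenase gene, stood at 64.2, 65.2 and 63.1 CPM in control and at 70.2, 76.7 and 80.8 CPM with carminic acid. HMOX1 had a log2 fold change of 0.24 (95% interval 0.06 to 0.43), and it was not called (adjusted p = 0.717, 0.0816 in the 6 libraries and 0.0954 with the trends removed). The other classical NRF2 targets NQO1, GCLM and TXNRD1 had -0.03, -0.08 and -0.04 with overlapping groups, and for NQO1 the 95% interval ran from -0.19 to 0.14. With the trends removed these 3 genes had 0.009, 0.037 and 0.014. Of 29 list members 20 were positive (median 0.06) and 9 lay above every control (12% of all genes). With the trends removed 23 were positive (median 0.075) and 11 lay above every control, where 16.8% of all genes did so. In the trio without a GC trend 24 of 29 were positive. Metallothionein genes were barely expressed, with MT1X at 0.412 to 0.512 CPM in control and 0.471 to 0.696 CPM with carminic acid. SLC30A1, the zinc exporter gene, stood at 62.2, 60.8 and 61.1 CPM against 65.3, 64.7 and 68.0 CPM and was called with the trends removed (0.24, 6-library adjusted p = 0.0339) but not as counted (0.358). TFRC, the transferrin receptor gene, and SLC11A2, the iron importer gene, had -0.06 and 0.02.

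FGA, the fibrinogen alpha chain gene, which Caco-2 cells share with hepatocytes, stood at 137, 138 and 134 CPM in control and at 156, 163 and 160.3 CPM with carminic acid. The spread within each group was small against the distance between them. Its log2 fold change was 0.23 (edgeR adjusted p = 0.717, and 0.0628 in the 6 libraries). With the trends removed it was 0.28 (adjusted p = 0.0329, and 0.00293 in the 6 libraries), the latter a call kept with each library left out. Of the 40 tested liver-type serum protein genes 28 were positive (median 0.07), and with the trends removed FGA alone was called.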

How the data were processed

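RNA of differentiated Caco-2 cells was sequenced in 3 libraries per group. The values the authors deposited are raw counts per NCBI Gene ID, made from HISAT2 alignments, per the file headers. Per the submitters' processing notes, the tools were FastQC, HISAT and featureCounts on hg38, with no versions. The handling of multi-mapping reads is not given in the sources used here, nor are the strand setting and the annotation release. Genes with close copies, pseudogenes and overlapping genes are therefore uncertain.

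Counts were tested in R 4.3.3 with edgeR 4.0.16 (filterByExpr, TMM factors, robust quasi-likelihood test, two-sided, Benjamini-Hochberg adjustment over all tested genes, threshold 0.05). All 9 libraries were fitted without covariates, and the same test was run on the 6 libraries compared. Levels are TMM-scaled CPM, and log2 fold changes are carminic acid over control. GC content and length, available for 96.5% of tested genes, are medians over GENCODE transcripts with a RefSeq match, and their trends in each library were removed as offsets (natural splines of 5 degrees of freedom). The calculation from control A and carminic acid A and C, and the repeats of the 6-library fit, were chosen after seeing the data. Alternatives were DESeq2 1.42.0 and limma-voom with a quality weight for each library (limma 3.58.1). Further alternatives were other scalings and filters, a block for the library letter, and leaving out each library. The pipeline was tested on simulated data.

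No pairing of libraries by the letters A, B and C was evident, with deviations of same-letter libraries correlated at -0.01 to 0.06. This cannot show that none existed. No pair of libraries within a group was a copy of another (chi-square per degree of freedom of 9.51 or more over genes with at least 20 counts). The 49 gene lists, of which 1527 genes were tested, and the comparison itself were chosen with earlier results of these data known. Named genes are the 10 with the smallest p in each direction among genes whose average log2 CPM was 0 or more and whose groups did not overlap, up to 10 called in each direction in the 6 libraries, the member of each list with the smallest p, and a fixed set given whatever the test. CREBZF, RAD52, SEC31B, CCNL1, CCNL2, SRSF6, U2SURP, U2AF1, CLK4, TYRO3, GSTA7P, DDX12P, MEP1A, ENPP7, SLC3A1, SLC26A3, CTSB, CTSH, NR2F6 and UGT2B7 were named after their values were seen. A gene that the rule picks is not reported here.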

Additional observations from a re-analysis of the deposited data

How the results depend on the processing

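Against 0 called genes of the 9-library edgeR fit, alternatives called 8 genes with DESeq2 (2 higher and 6 lower), 82 with limma-voom (25 and 57), 2 with no filter (1 and 1), 4 with the trends removed (2 and 2), 49 with only the 6 libraries (13 and 36) and 56 with both steps (22 and 34). RLE factors, library size alone, CPM above 1 in 3 libraries and an adjusted p under 0.1 called 0. Leaving out 1 library called 0 to 1 in total and in each direction. With the library letter as a replicate block 0 genes were called, and 2 with the trends removed as well (1 and 1, 1593 at an unadjusted p under 0.05). With the block in the 6 libraries 90 were called (27 and 63, 2673 at an unadjusted p under 0.05). Unadjusted p-values under 0.05 numbered 1030 in the 9-library fit, 2118 with only the 6 libraries and trends removed, 3154 with limma-voom, 2724 with only the 6 libraries, and 526 to 1182 with 1 library left out. The 49 genes of the 6-library fit became 11 to 362 with 1 library left out and 93 without both control C and carminic acid B, and the 56 genes with trends removed became 24 to 254. The causes were not tested. The difference in mitochondrial share stayed negative, from -0.934 to -0.514 percentage points with 1 library left out and -0.548 for protein-coding genes, against -0.695. Of 2324 values of 123 named genes under alternatives, 40 changed sign, in 14 genes that were all uncalled. With the trends removed (9 libraries, 6 libraries, and with the replicate block) log2 fold changes were 0.009, 0.006 and 0.011 for NQO1, 0.037, 0.037 and 0.038 for GCLM, 0.014, 0.013 and 0.015 for TXNRD1, 0.009, 0.009 and 0.010 for ABCB1, 0.026, 0.027 and 0.026 for TFRC and -0.010 in each for CES2. With library size alone they were -0.013 for SI, -0.011 for DPP4, -0.009 for ABCC2, -0.002 for SLC11A2, -2.0e-05 for DDIT3 (-0.005 with limma-voom) and -0.006 for HSPA5, a scaling that moves the median of all genes from -0.01 to -0.03. With 1 library left out, genes that changed sign had log2 fold changes from -0.056 to 0.075 for SI, -0.025 to 0.036 for DPP4, -0.036 to 0.055 for SLC11A2, -0.034 to 0.084 for DDIT3, -0.013 to 0.039 for HSPA5, -0.080 to 0.027 for NQO1, -1.4e-04 to 0.028 for ABCC2, -0.019 to 0.281 for MT1X and -0.009 to 0.216 for MT2A. Of 931 medians of lists 41 moved by more than the spread between libraries, in 14 lists. Counting error weighs most on genes with few counts, and 3 libraries per group limit the precision.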

Other observations

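Several further lists had mostly positive members, against a median log2 fold change of -0.01 over all tested genes (0.02 with the trends removed). Tight junction genes had 23 of 31 positive members (median 0.08), 9 of them above every control (12% of all genes), with CRB3, a polarity gene, at 41.0, 40.2 and 38.2 CPM in control and 47.0, 46.6 and 46.0 CPM with carminic acid, not called. Endocytosis and sorting had 32 of 43 positive (0.06) and replication-dependent histones 18 of 20 (0.11), none of the histones above every control. Apolipoproteins and lipid transport had 27 of 32 positive (0.09), with PLTP, a phospholipid transfer protein gene, at 67.9, 68.4 and 63.7 CPM against 73.7, 85.1 and 79.4 CPM. Matrix and epithelial-mesenchymal genes had 26 of 43 positive (0.08) and 14 above every control (12% of all genes). With the trends removed 6 of these 43 and 7 of the 31 tight junction genes lay above every control, where 16.8% of all genes did so. LAMB2, a basement membrane laminin gene, had a log2 fold change of 0.29 and an adjusted p of 0.0603 in the 6-library edgeR fit. LPIN3, a phosphatidate phosphatase gene, was called lower with the trends removed (-0.35, 6-library adjusted p = 0.00457), and so was the mitochondrial iron importer gene SLC25A37 (-0.29, 0.0359). Cytosolic ribosomal proteins had 57 of 79 positive as counted (0.05) and 69 of 79 with the trends removed (0.08), with no call among members as counted, where RPS2 had 0.20.

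Stress, growth and immune genes gave few differences. Members of the unfolded protein response were positive in 14 of 28 (median 0.001), with HSPA5, the chaperone gene of the endoplasmic reticulum, at 667, 692 and 681 CPM in control and 685, 670 and 714 CPM with carminic acid, and DDIT3 at a log2 fold change of 0.03. Heat shock chaperones had a median of 0.01, p53 targets one of -0.04 and NF-kB targets and cytokines one of 0.04. CDKN1A, a cell cycle inhibitor gene and p53 target, stood at 103, 97.4 and 97.1 CPM against 112, 119 and 113 CPM (0.21, 6-library adjusted p = 0.0967). CXCL8, the interleukin-8 gene, stood at 1.147, 1.502 and 2.05 CPM against 1.44, 0.678 and 0.688 CPM. Cell cycle genes were negative in 42 of 53 (-0.08) as counted and in 38 of 53 with the trends removed (-0.06, against 0.02 over all tested genes). In control A and carminic acid A and C alone, 36 of 53 were positive (0.04). PCNA, a replication gene, stood at 44.9, 54.5 and 59.0 CPM against 45.5, 41.9 and 45.5 CPM, so that control A lay among the treated libraries, and MKI67, a proliferation marker gene, had -0.06. HMGCS1 and IDI1, genes of cholesterol synthesis, had -0.18 and -0.24, and neither was called. MUC2, the mucin gene of goblet cells, had 3 counts in all 9 libraries together. REG3A, an antimicrobial lectin gene, stood at 0.107, 0.106 and 0.158 CPM against 0.315, 0.286 and 0.290 CPM, without a call (6-library adjusted p = 0.172).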
